A study of Mus musculus with 13 samples.

Results

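The 10 genes described here are Shh, Ptch1, Smo, Gas1, Cdon, Boc, Sufu, Gli1, Gli2 and Gli3, the core of the Hedgehog signalling pathway. They were chosen by name, not by their values, though earlier results of these data were known. Every one was found by gene identifier among 20689 gene bodies in the table. All 10 passed the filters, as did 18548 gene bodies in all. Around them lie 6 CpG islands that hold a member's transcription start site (TSS), 105 elements of the classes the authors named Enh and IS, and 8 entries for H3K9me3 domains, out of 240814 regions.

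Hedgehog signalling patterns the embryonic brain and spinal cord and keeps neural progenitors dividing. Shh is the secreted ligand. It binds Ptch1, with Gas1, Cdon and Boc as coreceptors, and so frees Smo, which signals through the primary cilium. Sufu holds the GLI transcription factors back until Smo is active. Gli1 and Gli2 then act mainly as activators and Gli3 mainly as a repressor, and Gli1, Ptch1 and Hhip are themselves targets of the pathway.

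The study used chromatin immunoprecipitation and sequencing (ChIP-seq) to map KAT7 (also HBO1) and histone H3 acetylated on lysine 14 (H3K14ac) and to set Kat7-deleted beside Kat7-intact cells. KAT7 is an acetyltransferase that acts on this residue. Mouse neural stem and progenitor cells from cortex and ganglionic eminences of E14.5 embryos were grown as neurospheres and taken at passage 5, day 3. Of the 13 libraries, H3K14ac was measured in 4 from Kat7+/+ NesCreT/+ cells (Kat7 intact) and 3 from Kat7lox/lox NesCreT/+ cells (Kat7 deleted), KAT7 in 3 and 1 of these, and IgG in 1 for each antibody. Both genotypes therefore carry the Cre transgene, whose nestin promoter is active in neural progenitors, and the isolates came from as many animals. The values used are 1 merged column per antibody, and the sources used here do not say which libraries and genotypes each column merges. Genotypes and IgG were not compared, and so were not analysed here. A neurosphere can hold several cell types, and their shares cannot be told apart from the level per cell. Coordinates are those of the table, in mm10.

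Levels are given as RPKM, reads scaled to kilobases of region and to the read total of the column. The columns rest on 141734087 reads for H3K14ac and 134111848 for KAT7. Each level carries an exact Poisson 95% interval and each KAT7 to H3K14ac ratio an exact binomial (Clopper-Pearson) 95% interval. These intervals cover counting error only. With 1 merged value per antibody there are no replicates and no test between conditions, and the antibodies have no common scale, so a ratio ranks regions against each other and does not set occupancy against acetylation. Equal scaled reads, a ratio of 1, are the rule's point of reference, and the class median is given beside it. A region is called KAT7-skewed at a ratio of at least 1.2, or H3K14ac-skewed at 1/1.2 or less, where the interval does not hold 1. The authors' file also sorts genes by expression: 5 of 9 neural stem and radial glia markers (Nes, Sox2, Fabp7, Vim and Slc1a3) are in its Top class and none is in Bottom. No marker of neurons, oligodendrocytes, astrocytes, microglia or vessels is in Top, and 3 of 4 vessel markers are in Bottom. Gas1 is the 1 member in Top, and the other 9 are in the class Other. Of the gene bodies that passed the filters, 933 are in Top, 16684 in Other and 931 in Bottom. Most gene bodies are thus in Other, so a place there or an absence from Top tells little about expression or cell type.

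The results turn on the promoters of Ptch1, Gas1, Gli3 and Sufu, so 250 bases upstream of their RefSeq starts are shown, with that of Cdon, the CpG-poor promoter, for contrast. Sequences are from RefSeq on GRCm38.p6, 5′ to 3′ in the direction of the gene, with each CpG in capitals.
Ptch1 (chr13:63565736-63565985, minus strand): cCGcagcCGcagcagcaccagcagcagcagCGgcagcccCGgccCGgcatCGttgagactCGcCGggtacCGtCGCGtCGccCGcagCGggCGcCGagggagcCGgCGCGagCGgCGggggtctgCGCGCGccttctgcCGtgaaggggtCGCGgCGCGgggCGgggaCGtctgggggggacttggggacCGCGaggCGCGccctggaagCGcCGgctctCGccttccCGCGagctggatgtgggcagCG
Gas1 (chr13:60177536-60177785, minus strand): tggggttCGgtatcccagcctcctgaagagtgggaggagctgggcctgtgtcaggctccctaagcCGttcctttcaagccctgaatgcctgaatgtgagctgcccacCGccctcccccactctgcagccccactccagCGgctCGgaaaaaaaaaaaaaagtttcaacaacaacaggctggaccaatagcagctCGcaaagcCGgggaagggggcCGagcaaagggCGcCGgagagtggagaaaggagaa
Gli3 (chr13:15463473-15463722, plus strand): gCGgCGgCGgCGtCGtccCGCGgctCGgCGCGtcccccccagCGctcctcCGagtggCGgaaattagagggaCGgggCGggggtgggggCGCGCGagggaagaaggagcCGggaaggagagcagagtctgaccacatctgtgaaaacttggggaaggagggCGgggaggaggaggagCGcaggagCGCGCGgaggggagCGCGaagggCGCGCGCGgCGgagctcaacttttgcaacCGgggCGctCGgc
Sufu (chr19:46396646-46396895, plus strand): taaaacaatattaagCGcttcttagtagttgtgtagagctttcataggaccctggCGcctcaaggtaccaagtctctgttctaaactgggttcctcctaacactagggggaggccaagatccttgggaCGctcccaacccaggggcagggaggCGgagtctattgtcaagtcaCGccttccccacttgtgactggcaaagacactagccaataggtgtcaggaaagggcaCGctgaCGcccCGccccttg
Cdon (chr9:35451826-35452075, plus strand): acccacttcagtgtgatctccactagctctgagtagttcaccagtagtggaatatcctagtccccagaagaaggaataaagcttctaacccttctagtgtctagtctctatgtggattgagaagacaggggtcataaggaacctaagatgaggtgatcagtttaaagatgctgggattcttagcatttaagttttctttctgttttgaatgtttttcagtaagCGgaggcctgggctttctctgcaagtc
CpG dinucleotides number 41 for Ptch1, 34 for Gli3, 10 for Gas1, 8 for Sufu and 1 for Cdon. Gli2, with 22, and Smo, with 15, lie between, and the median of 32851 RefSeq windows is 6. GC content runs from 42.8% for Cdon to 78.4% for Ptch1, against a median of 52.4%. The Ptch1 start in RefSeq lies 215 bases from the start in the authors' table, that of Sufu 22 bases, and the other 5 matched starts coincide. Of the 7 windows that RefSeq matched to members, none holds the GLI consensus GACCACCCA on either strand, which 0.225% of all windows hold. The GC box GGGCGG is in 5 of 7 (Ptch1, Gas1, Sufu, Gli2 and Gli3), against 32.7% of all windows. CCAAT is in 2 of 7 (Gas1 and Sufu), against 33.9%. All motifs were searched on both strands and do not overlap one another as strings. The shown stretch lies wholly inside the TSS island for Ptch1 and Gli3, with 56 bases inside it for Gas1 and 21 for Sufu.

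Over gene bodies, 8 of the 10 Hedgehog genes lay between 0.296 and 0.399 RPKM for H3K14ac and between 0.341 and 0.447 for KAT7, around the medians of all gene bodies, 0.378 and 0.396. Smo and Gas1 stood far above them in both columns. IgG was not set beside these levels, so what share of them comes from unspecific reads was not tested. The median over the 10 genes was 0.392 for H3K14ac and 0.403 for KAT7, and their median ratio was 1.02 against 1.05 for all gene bodies. The rule called 1 of 10 KAT7-skewed, Gas1, where it called 10.9% of all gene bodies. It called none H3K14ac-skewed, where it called 1.4%. Both counts are near the background.

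Shh, the ligand (gene 20423, chromosome 5, 28456840 to 28467101, minus strand), had the lowest H3K14ac of the 10. Its body held 431 H3K14ac reads, or 0.296 RPKM (0.269 to 0.326), and 483 KAT7 reads, or 0.351 (0.320 to 0.384). This put it above 5.86% of gene bodies for H3K14ac and above 13.7% for KAT7. The ratio was 1.18 (1.04 to 1.35), just under the rule. Shh shares 118 bases with 9530036O11Rik on the other strand, and how reads in shared bases were counted is not given in the sources used here.

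Ptch1, the receptor (gene 19206, chromosome 13, 63511533 to 63565520, minus strand), held 3055 H3K14ac reads, or 0.399 RPKM (0.385 to 0.414), and 3234 KAT7 reads, or 0.447 (0.431 to 0.462). The ratio of 1.12 (1.06 to 1.18) was above the median of all gene bodies, 1.05. The KAT7 level exceeded 88.8% of gene bodies, and 97.8% of those within 1.5-fold of its length.

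Smo, the membrane protein that relays the signal (gene 319757, chromosome 6, 29735497 to 29761366, plus strand), had the highest H3K14ac of the 10, 0.925 (0.894 to 0.957), with KAT7 at 0.871 (0.841 to 0.903). These are above 99.6% and 99.5% of gene bodies, and the ratio was 0.942 (0.897 to 0.990). Most of these reads come from 1 stretch inside the gene. An H3K9me3 domain (29742372 to 29754372) covers 46.4% of the gene body and holds 77.4% of its H3K14ac and 73.1% of its KAT7 reads. The domain itself stood at 1.54 (1.49 to 1.60) for H3K14ac and 1.37 (1.32 to 1.43) for KAT7, above 99.7% of the 17594 domains of its set in each column, whose medians were 0.386 and 0.388. H3K9me3 is a mark of silent chromatin, and the domain class is the authors' own. Without these bases, the remainder of Smo had 767 H3K14ac reads, or 0.390 (0.363 to 0.419), and 813 KAT7 reads, or 0.437 (0.408 to 0.468). That is within the range of the other members, and the ratio of 1.12 (1.01 to 1.24) holds the gene body median of 1.05, where that of the whole gene was below it. What raises both columns in the domain was not tested.

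Among the coreceptors, Gas1, a membrane-anchored protein first known for its role in growth arrest, differed from Cdon and Boc, which are immunoglobulin-superfamily proteins. Gas1 (gene 14451, chromosome 13, 60174405 to 60177535, minus strand) had 328 H3K14ac reads, or 0.739 (0.662 to 0.824), and 384 KAT7 reads, or 0.915 (0.826 to 1.01). It is also the shortest of the 10, at 3131 bases, and its body contains 96.8% of the bases of its TSS island. Its levels exceeded those of 99.1% and 99.6% of gene bodies, and its ratio was 1.24 (1.07 to 1.44). Among gene bodies within 1.5-fold of its length, the levels still exceeded 98.95% for H3K14ac and 99.53% for KAT7. The ratio, in contrast, was above 91.06% of all gene bodies but only 78.19% of those of like length. Cdon (gene 57810, chromosome 9, 35452076 to 35507652, plus strand) had 0.395 (0.382 to 0.410) and 0.406 (0.391 to 0.420). Boc (gene 117606, chromosome 16, 44485045 to 44558870, minus strand) had 0.380 (0.368 to 0.392) and 0.383 (0.371 to 0.396). Both lay near the median gene body, and their ratios of 1.03 (0.976 to 1.08) and 1.01 (0.965 to 1.06) could not be told from 1. Boc shares 84 bases with the microRNA gene Mir3081, for which the table lists 0 reads.

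Sufu, the inhibitor (gene 24069, chromosome 19, 46396918 to 46486660, plus strand), held 4979 H3K14ac reads, or 0.391 RPKM (0.381 to 0.403), and 4974 KAT7 reads, or 0.413 (0.402 to 0.425). Its ratio of 1.06 (1.02 to 1.10) holds the median of all gene bodies, 1.05. Among the GLI factors, levels were lowest at Gli1 and highest at Gli3 in both columns, with intervals of this pair that do not overlap. Gli1 (gene 14632, chromosome 10, 127329882 to 127341579, minus strand), whose transcription is a common readout of the pathway, had 0.343 (0.316 to 0.373) and 0.341 (0.313 to 0.371). It shares 62 bases with Arhgap9 on the other strand. Gli2 (gene 14633, chromosome 1, 118834061 to 119053619, minus strand) had 0.379 (0.372 to 0.386) and 0.360 (0.353 to 0.367). Gli3 (gene 14634, chromosome 13, 15463723 to 15730026, plus strand) had 0.393 (0.386 to 0.399) and 0.400 (0.393 to 0.406). The ratios were 0.994 (0.881 to 1.12) for Gli1, 0.949 (0.925 to 0.975) for Gli2 and 1.02 (0.995 to 1.04) for Gli3, and the intervals of Gli2 and Gli3 lie below the gene body median. For Gli3 this depends on length: its ratio was above 39.4% of all gene bodies but 70.6% of those within 1.5-fold of its length. The Gli2 ratio was above 15.95% and 9.245% in the same order.

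In order of gene body KAT7, Gas1 and Smo lead with overlapping intervals, and Ptch1 follows well below them and above the remainder. Sufu, Cdon and Gli3 have overlapping intervals, then come Boc, Gli2, Shh and Gli1, whose neighbours in the order also overlap or nearly touch. Set against the median ratio of all gene bodies, 1.05, the ratio's interval lay above it for 2 genes (Ptch1 and Gas1), below it for 3 (Smo, Gli2 and Gli3) and held it for 5. That median is over gene bodies of all lengths, and the place of Gli3 turns among those of like length. The authors' expression classes give a scale for these values: the median KAT7 level was 0.435 for Top genes, 0.396 for Other and 0.376 for Bottom, while H3K14ac was 0.386, 0.377 and 0.386.

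**Figure D1:**
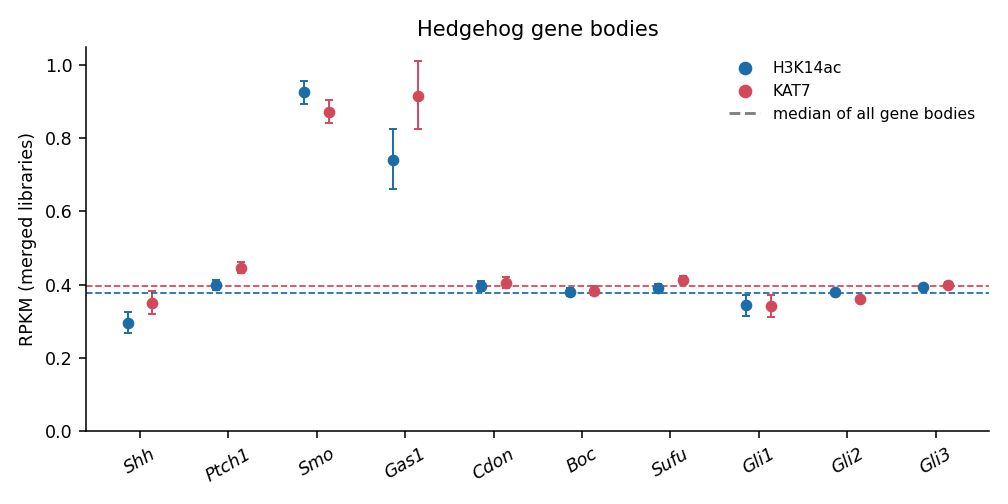
RPKM over the gene body of each of the 10 genes, in the merged H3K14ac (blue) and KAT7 (red) columns, with exact Poisson 95% intervals and dashed lines at the medians of all 18548 gene bodies. Smo and Gas1 sit between 0.739 and 0.925, and the other 8 genes lie within 0.296 to 0.447.

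At CpG islands over the TSS the KAT7 to H3K14ac ratio spread further among the members than over gene bodies, from 0.939 to 1.53 against 0.942 to 1.24, while the levels spread less. The islands held 24 to 239 H3K14ac reads against 328 to 14818 over the bodies, so counting error in the ratio is larger there. The median over the 6 islands that hold a member's TSS was 0.534 for H3K14ac and 0.615 for KAT7, against 0.458 and 0.487 for all 8899 such islands, and the median ratio was 1.42 against 1.06. The rule called 3 of 6 KAT7-skewed, those of Gas1, Ptch1 and Gli3, where it called 14.7% of all TSS islands. It called none H3K14ac-skewed, where it called 8.16%. The islands of Gas1, Ptch1 and Gli3 span 1755, 2943 and 1666 bases, against 470, 386 and 1126 for Sufu, Gli2 and Smo. The median over all TSS islands is 657 bases. Long islands hold more reads and so have narrower intervals, which makes a call easier. The share called among islands of like length was not taken. With 6 islands, 3 calls is a description of these genes.

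The Gas1 island (chromosome 13, 60175837 to 60177591) held 171 H3K14ac reads, or 0.688 (0.589 to 0.799), and 247 KAT7 reads, or 1.05 (0.923 to 1.19). Its KAT7 level exceeded that of 99.7% of TSS islands and its ratio was 1.53 (1.25 to 1.87). The Ptch1 island (chromosome 13, 63563240 to 63566182) held 239 reads, or 0.573 (0.503 to 0.651), and 319 reads, or 0.809 (0.722 to 0.902). Here too KAT7 was high, above 96.9% of TSS islands, while H3K14ac was above 72.1%, and the ratio was 1.41 (1.19 to 1.68). The Gli3 island (chromosome 13, 15462833 to 15464498) reached a like ratio, 1.43 (1.06 to 1.92), at lower levels. It held 83 H3K14ac reads, or 0.352 (0.280 to 0.436), and 112 KAT7 reads, or 0.502 (0.413 to 0.604), so its H3K14ac was above only 26.4% of TSS islands and its KAT7 above 54.2%.

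The islands of Sufu, Gli2 and Smo were not called. That of Sufu (chromosome 19, 46396875 to 46397344) had 24 and 34 reads, 0.361 (0.231 to 0.537) and 0.541 (0.374 to 0.755), with a ratio of 1.5 (0.862 to 2.64) whose interval is too wide at this depth to tell it from 1. That of Gli2 (chromosome 1, 119053398 to 119053783) had 27 and 26 reads, 0.495 (0.326 to 0.720) and 0.504 (0.329 to 0.738). Smo (chromosome 6, 29735416 to 29736541) had 117 and 104 reads, 0.734 (0.607 to 0.879) and 0.689 (0.563 to 0.835), the highest H3K14ac of the 6 islands, with a ratio of 0.939 (0.714 to 1.23). The intervals of the Smo and Gas1 islands overlap for H3K14ac and do not overlap for KAT7.

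Shh and Boc have islands that end just short of their TSS and so fall outside the rule. The Shh island (chromosome 5, 28466765 to 28467039) ends 62 bases short and holds the start of 9530036O11Rik on the other strand. It had 12 and 20 reads, 0.309 (0.160 to 0.540) and 0.544 (0.333 to 0.841). The Boc island (chromosome 16, 44558288 to 44558804) ends 66 bases short, with 65 and 48 reads, 0.889 (0.686 to 1.13) and 0.694 (0.511 to 0.920). They lie on either side of the TSS island median, with ratios of 1.76 (0.820 to 3.95) and 0.780 (0.526 to 1.15), and neither can be told from 1. Cdon and Gli1 have no entry of the authors' class of CpG islands near a TSS in the gene body or the 5 kb upstream of it. Their start regions are therefore described by other entries.

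**Figure D2:**
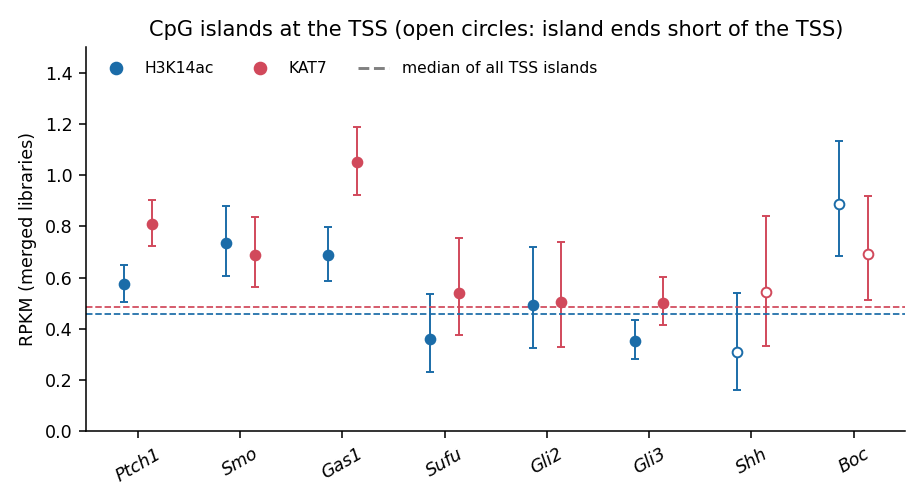
RPKM at the CpG islands of 8 genes in the merged H3K14ac (blue) and KAT7 (red) columns, with exact Poisson 95% intervals and dashed lines at the medians of all 8899 TSS islands. Gas1 and Ptch1 have the highest KAT7, 1.05 and 0.809, and the open circles of Shh and Boc mark islands that end 62 and 66 bases short of the TSS.

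Within a column, the island could be set against the gene body it belongs to. At Ptch1 the island was 1.44-fold (1.25 to 1.64) above the body for H3K14ac and 1.81-fold (1.61 to 2.03) for KAT7. At Gli3 the island was above the body for KAT7, 1.26-fold (1.03 to 1.51), but not for H3K14ac, 0.896-fold (0.713 to 1.11). At Gas1 the fold was 0.930 (0.769 to 1.12) for H3K14ac and 1.15 (0.974 to 1.35) for KAT7. That gene body contains 96.8% of the bases of its island, and against the body without the island the KAT7 fold was 1.39 (1.13 to 1.72). At Smo the island was lower than the body in both columns, 0.793-fold (0.654 to 0.954) and 0.791-fold (0.644 to 0.962), but that body includes the H3K9me3 domain described above. Against the body without the domain the direction turned, and the island was 1.88-fold (1.54 to 2.29) and 1.58-fold (1.27 to 1.94) higher. Sufu, with folds of 0.922 and 1.31 (0.905 to 1.83 for KAT7), and Gli2, with 1.31 and 1.40, had intervals that hold 1 in both columns.

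Promoter windows of 2001 bases upstream of the TSS could be read for the plus-strand genes Cdon, Gli3, Smo and Sufu alone, since for the 6 minus-strand genes the table gives a length of -1999 bases and 0 reads. The rule called 2 of 4 KAT7-skewed, Sufu and Gli3, where it called 14.3% of 9907 plus-strand windows, and none H3K14ac-skewed, where it called 3.13%. Sufu had the strongest skew, with 55 H3K14ac reads, or 0.194 (0.146 to 0.253), and 112 KAT7 reads, or 0.418 (0.344 to 0.502). Its ratio was 2.15 (1.55 to 3.03), above that of 99.9% of windows. The skew came with low H3K14ac and not with high KAT7: H3K14ac was above 0.666% of windows and KAT7 above 53.5%, with medians of 0.377 and 0.410. Gli3 had the same form, with 71 reads, or 0.25 (0.196 to 0.316), and 104 reads, or 0.388 (0.317 to 0.470), a ratio of 1.55 (1.13 to 2.12), and H3K14ac above 2.15% of windows. Cdon, at 0.427 and 0.421 with a ratio of 0.987 (0.757 to 1.29), and Smo, at 0.303 and 0.358 with 1.18 (0.873 to 1.60), could not be told from 1.

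The Sufu window also holds the start of Actr1a, an actin-related gene that runs the opposite way from a TSS 1183 bases off. The island of Actr1a within the window had 27 and 55 reads, and the window without that island had 28 and 57. The ratios on the whole window, on that island and on the remainder were 2.15 each, with 1.35 to 3.51 for the remainder. The skew upstream of the Sufu TSS thus cannot be assigned to 1 gene. The window ends at that TSS, and the ratio of the island that holds it, 1.5 (0.862 to 2.64), could not be told from 1. Past the transcription end of the same 4 genes, the ratios were 0.891 for Cdon, 0.940 for Gli3, 1.2 for Smo and 0.958 for Sufu, and none was called.

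**Figure D3:**
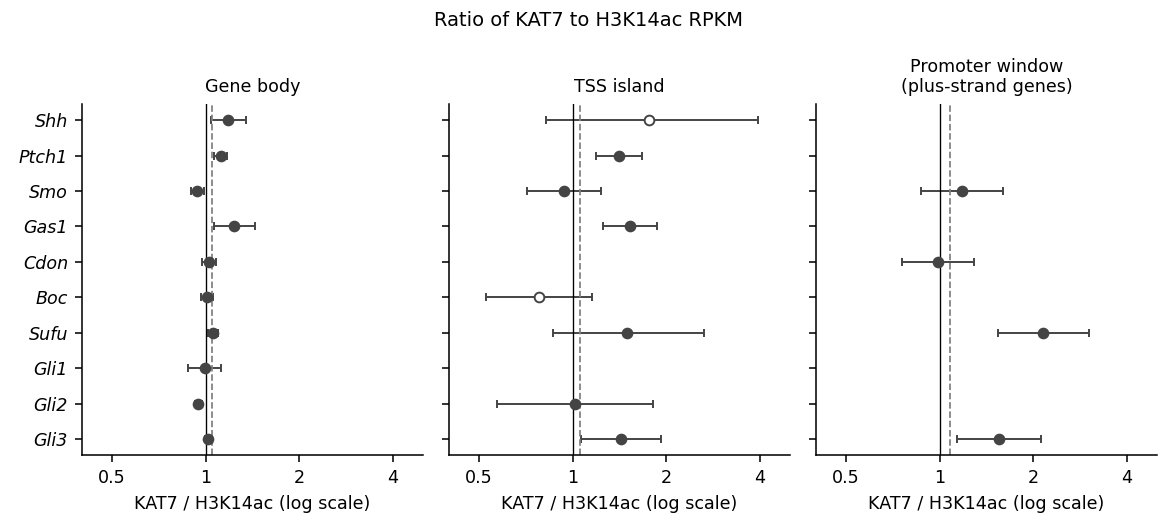
Ratio of KAT7 to H3K14ac RPKM on a log scale for each gene, over the gene body, the TSS island and the plus-strand promoter window, with exact binomial 95% intervals, a solid line at 1 and a dashed line at the median of the class. Gene body ratios stay within 0.942 to 1.24, while those of the Gas1, Ptch1 and Gli3 islands are 1.53, 1.41 and 1.43 and that of the Sufu window is 2.15 (open circles: islands short of the TSS).

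The 105 Enh and IS elements touch a gene body or the 5 kb upstream of it. The meaning of Enh and IS is not given in the sources used here. Near and far from the TSS are the authors' classes. The members hold 17 Enh elements near and 38 far, and 35 IS elements near and 15 far. KAT7-skewed calls were made at 5 of the 17 near Enh elements, with 13.2% of that class called over the genome, at 4 of the 38 far ones (4.98%), at 6 of the 35 near IS elements (7.63%) and at 0 of the 15 far ones (3.18%). The H3K14ac direction had 1 call, at a near IS element of Smo, where the class shares were 5.28%, 3.8%, 4.8% and 3.34% in the same order. The near Enh elements had medians of 0.382 for H3K14ac and 0.459 for KAT7, against 0.434 and 0.476 for their class. The far Enh elements had 0.432 and 0.448, against 0.459 and 0.470, so both Enh classes lay lower at the members. The near IS elements had medians of 0.584 and 0.601, against 0.539 and 0.574 for their class. Of the 15 far IS elements, 9 belong to Gli2, with medians of 0.877 and 0.567, and the other 6 had 0.405 and 0.586, against 0.543 and 0.533 for the class, so the raised H3K14ac median rests on Gli2. Elements of 1 gene share its chromatin, and several overlap the islands and promoter windows above, so these counts are not independent of them. Calls were spread over 8 of the genes: 3 each at Ptch1, Gas1 and Gli3, 2 each at Sufu and Gli1, 1 each at Shh and Boc, and the 1 of the other direction at Smo. Gli2, with 23 elements the most of any member, and Cdon, with 1, had none.

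Each gene's highest element, below, is the one with the highest lower bound of its interval. At Gas1 the short elements inside the gene did not share 1 ratio. The element 376.5 bases downstream of the TSS, the member's highest for H3K14ac, had 48 H3K14ac reads, or 1.76 (1.29 to 2.33), and 33 KAT7 reads, or 1.28 (0.878 to 1.79), a ratio whose interval holds 1. Further in, 1692 bases downstream, an element had 12 and 27 reads, a ratio of 2.38 (1.17 to 5.15). The next, 1871 bases downstream, had 15 reads, or 1.04 (0.581 to 1.71), and 30 reads, or 2.19 (1.48 to 3.13), the highest KAT7 of any Gas1 element. Both called elements thus lie past the first kilobase, with counts that leave wide intervals. The long Enh element over the start, 3491 bases, had 315 and 372 reads and a ratio of 1.25 (1.07 to 1.46).

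At Ptch1 a 5572-base Enh element over the start had 365 H3K14ac reads, or 0.462 (0.416 to 0.512), and 461 KAT7 reads, or 0.617 (0.562 to 0.676), with a ratio of 1.34 (1.16 to 1.54), above the class median of 1.09. Its highest short element in both columns lies 1364 bases downstream, with 35 and 26 reads, 1.52 (1.06 to 2.11) and 1.19 (0.777 to 1.74). Deep in the gene, 2 Enh elements 40145 and 50634 bases from the TSS were also called, at ratios of 2.51 (1.05 to 6.63) and 1.41 (1.03 to 1.93). In the same area the H3K9me3 domain of Ptch1 had 0.360 for H3K14ac and 0.430 for KAT7.

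At Gli3 low H3K14ac was present in the short elements upstream of the TSS and on it. These share bases, and so reads, with the promoter window and are not a separate observation. The element whose middle is 476 bases upstream had 2 H3K14ac and 12 KAT7 reads, a ratio of 6.34 (1.41 to 58.3). The element on the TSS had 8 and 20 reads, a ratio of 2.64 (1.12 to 6.94). The next, 255 bases downstream, had 10 and 15 reads, or 0.383 and 0.608, and was not called. Beyond it, 747 bases downstream, the highest Gli3 element in both columns had 27 reads, or 1.36 (0.897 to 1.98), and 20 reads, or 1.07 (0.651 to 1.65). H3K14ac was thus 0.109 at the upstream element and 1.36 at the downstream one, with intervals that do not overlap. The Enh element over the start had 190 and 230 reads and a ratio of 1.28 (1.05 to 1.56).

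At Smo an element inside the island, 767.5 bases downstream of the TSS, was the 1 call in the H3K14ac direction, with 60 reads, or 1.07 (0.818 to 1.38), and 35 reads, or 0.661 (0.460 to 0.919), and a ratio of 0.617 (0.394 to 0.951). Its highest KAT7 element by lower bound was the Enh element at the start, with 128 and 132 reads, 0.584 and 0.637. At Sufu, the Enh element on the TSS had 47 and 77 reads and a ratio of 1.73 (1.19 to 2.54), with H3K14ac low at 0.260. This element overlaps the promoter window and contains the TSS island, so its reads are partly theirs. An Enh element 49737 bases downstream had 9 and 20 reads, a ratio of 2.35 (1.02 to 5.86), and the highest H3K14ac by lower bound was at one 87265 bases downstream, 0.702 (0.563 to 0.866), with KAT7 at 0.572.

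**Figure D4:**
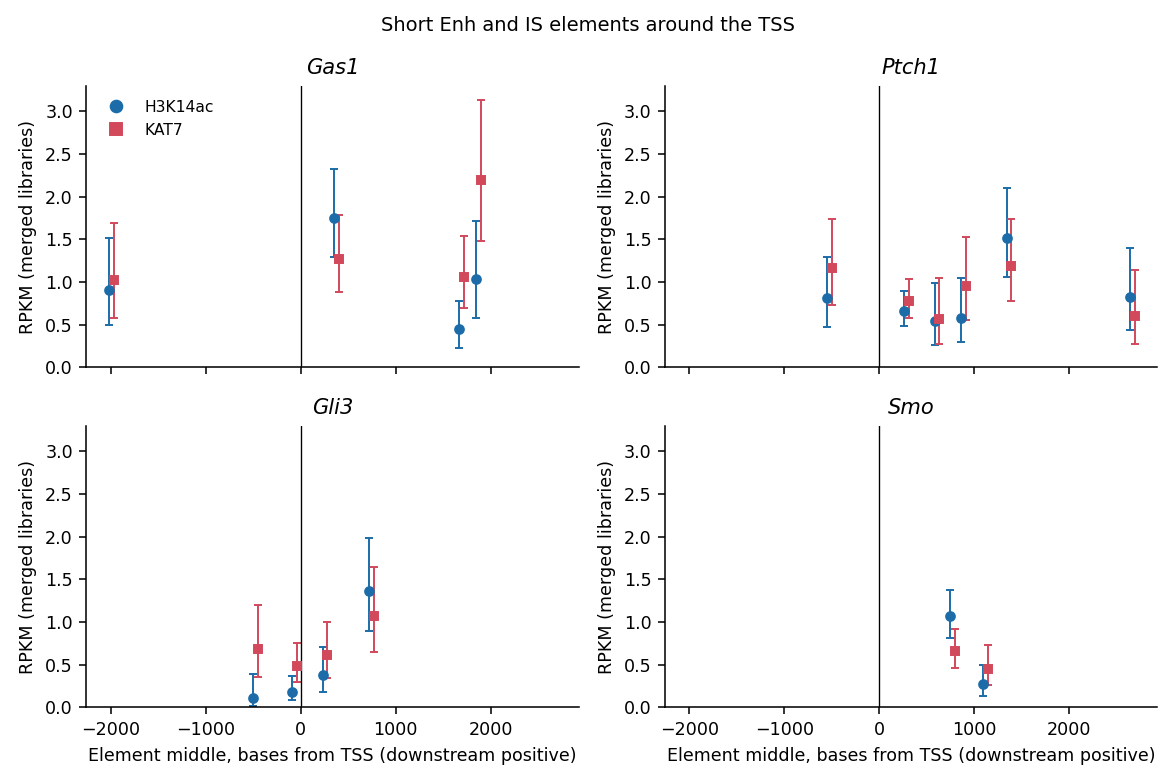
RPKM in the merged H3K14ac (blue circles) and KAT7 (red squares) columns at those Enh and IS elements that span 500 bases or fewer, placed along the x axis by how far their middle lies from the TSS, for Gas1, Ptch1, Gli3 and Smo, with exact Poisson 95% intervals. The KAT7 value is 2.19 at 1871 bases in Gas1, with H3K14ac at 1.04, while at 767.5 bases in Smo the values are 0.661 and 1.07.

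Gli1, which has no island of the near-TSS class, had 2 calls. An Enh element 896 bases upstream had 7 and 21 reads and a ratio of 3.17 (1.30 to 8.83). The second, an IS element on the TSS, had 4 and 16 reads and a ratio of 4.23 (1.36 to 17.4). H3K14ac at the second was 0.0973, above 2.60% of its class, while KAT7 was 0.411. Its highest H3K14ac lay 8302 bases downstream, with 16 and 12 reads. At Shh the call was an element of 100 bases inside the first part of the gene, with 1 H3K14ac and 12 KAT7 reads and a ratio of 12.7 (1.88 to 542), so its size is hardly known. The highest H3K14ac at Shh was 0.597, 4652 bases downstream, with KAT7 at 0.557. Boc had 1 call, a 3855-base Enh element 64218 bases downstream at 1.23 (1.01 to 1.49), and its highest element, 287.5 bases downstream, had 31 and 29 reads, 0.923 and 0.912. At Gli2 the highest elements lie far inside the gene, 20194 bases downstream for H3K14ac (1.76, with KAT7 at 1.24) and 42880 bases for KAT7 (1.45, with H3K14ac at 1.25). The Enh element of Cdon, 30270 bases downstream, had 53 and 64 reads, 0.416 and 0.531, and a ratio of 1.28 (0.873 to 1.87).

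The 8 H3K9me3 entries belong to 5 genes: Ptch1, Smo, Boc, Gli2 and Gli3. Outside Smo they ran from 0.360 to 0.395 for H3K14ac and from 0.360 to 0.430 for KAT7, and no entry was called. H3K14ac there lay between the 27.6th and 59.8th percentiles of the class, and KAT7 between the 20.4th at Gli2 and the 89.0th at Ptch1. The domains of Smo, Gli2 and Gli3 are each given in both of the authors' sets at almost the same coordinates, so the 8 entries stand for 5 places. The Smo domain was the exception to the ranges above.

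Another 61 Hedgehog genes, listed by role, show where the 10 sit in the pathway. Of these 59 were found and 56 kept, as Gpc3, Gpc4 and Ptchd1 are on chromosome X and were set apart. Over gene bodies, 5 of 56 were KAT7-skewed and none H3K14ac-skewed, where the rule called 10.9% and 1.4% of all gene bodies, so the share of the list is near the background. Its medians were 0.364 and 0.390. By role the count was 0 of 8 genes for ligands and their release, 0 of 4 for receptors, coreceptors and inhibitors, 0 of 19 for cilium and relay, 1 of 12 for kinases and turnover of GLI proteins, and 4 of 13 for targets. The 4 targets, named after their values were seen, are transcription factors: Foxa2 with 134 and 219 reads and a ratio of 1.73 (1.39 to 2.16), Olig2 with levels of 0.803 and 1.30 and a ratio of 1.62 (1.41 to 1.85), Osr1 at 1.38 (1.18 to 1.60) and Foxf1 at 1.37 (1.04 to 1.82). They span 2406 to 7059 bases, short like Gas1 against a median gene body of 18384. The share called among gene bodies of such lengths was not taken, so role and length cannot be told apart here. The kinase gene was Prkar1a, a regulatory subunit of protein kinase A, at 1.21 (1.11 to 1.31). Of these 6 genes, Olig2 and Gas1 were well above the gene body medians in both columns.

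Of the closest relatives of the members, Kif7 had low H3K14ac over its gene body and the others lay nearer the median. The ligand genes Ihh and Dhh had 0.348 and 0.408 for H3K14ac and 0.371 and 0.407 for KAT7. Hhip, a decoy receptor induced by the pathway, had 0.393 and 0.377, with a ratio of 0.959 (0.922 to 0.998). Kif7, the ciliary kinesin, had 0.309 (0.287 to 0.333) and 0.366 with a ratio of 1.18 (1.07 to 1.31), and Gpr161, a ciliary receptor that holds the pathway down, had 0.392 and 0.395 with 1.01 (0.935 to 1.09). None of these 5 was called.

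**Figure D5:**
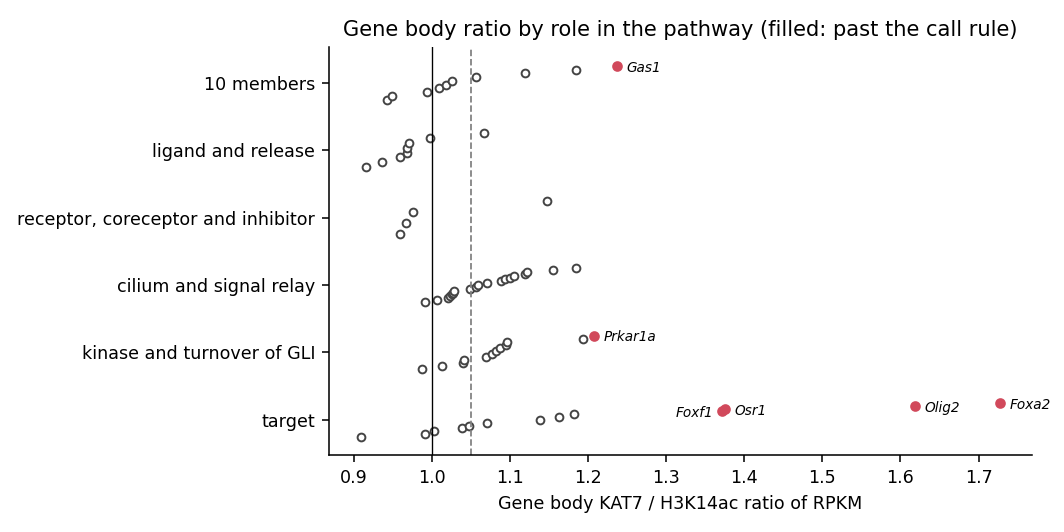
Gene body ratio of KAT7 to H3K14ac RPKM for the 10 members and 56 other Hedgehog genes by role, 1 point per gene, with a solid line at 1, a dashed line at the median of all gene bodies, 1.05, and filled points past the call rule. Filled points are Gas1 among the 10, Prkar1a among kinases and Foxa2, Olig2, Osr1 and Foxf1 among targets.

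At TSS islands of the same list, 10 of 36 were KAT7-skewed and 4 H3K14ac-skewed, beside 14.7% and 8.16% of all TSS islands, with medians of 0.424 and 0.486 and a median ratio of 1.17. Genes upstream and downstream of Smo went both ways. Prkaca, the catalytic subunit of protein kinase A that marks GLI proteins for cleavage, had 7 and 37 reads and a ratio of 5.59 (2.46 to 14.9). Btrc, which targets the marked proteins to the proteasome, had 11 and 36 reads and a ratio of 3.46 (1.72 to 7.53). In the opposite direction, Disp1, which releases the ligand from the cell, had 68 and 23 reads, 1.45 (1.13 to 1.84) and 0.520 (0.329 to 0.780), and a ratio of 0.358 (0.213 to 0.581). Scube1, a secreted protein of the family that helps that release, had 57 and 25 reads and a ratio of 0.464 (0.278 to 0.754). Dyrk2, a kinase, had 146 and 79 reads and a ratio of 0.572 (0.429 to 0.757). The ciliary genes Ift172, Efcab7 and Rpgrip1l were KAT7-skewed at 2.34 (1.21 to 4.76), 2.31 (1.25 to 4.47) and 2.07 (1.21 to 3.63), and the last pair of islands each hold the start of another gene too. The islands of Ihh, at 0.376 and 0.398, and Hhip, at 0.284 and 0.356, were not called.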

How the data were processed

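The members and the lists of other Hedgehog genes and markers were chosen with earlier results of these data known. The table of regions holds, per the file headers, a read count and an RPKM for 1 merged H3K14ac and 1 merged KAT7 (HBO1) column. The submitters' processing notes name mm10 as the build, and featureCounts, deepTools, Picard, SAMtools and Bowtie2 as tools, without versions. The deposited RPKM equals the deposited count over the region's end minus start and over 1 read total per column, for 100% of rows at a relative tolerance of 1e-06. What those totals and the letters SC and gc in the headers stand for, and whether reads were corrected before counting, is not given in the sources used here, so the counts may be corrected ones.

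Regions on autosomes with a positive length, a mean RPKM of at least 0.1 and neither value above 5 were kept, which removed 2141 of 20689 gene bodies. Gene identifiers were matched to symbols in RefSeq's table for GRCm38.p6, which had 96.7% of them. Intervals were exact (SciPy 1.17.1, with pandas 2.3.3, numpy 2.4.6 and Matplotlib 3.10.9 on Python 3.11.15) and were tested on simulated data. No test between samples was possible on merged columns, so no p-value is given, and members are described beside the share of all regions of their class that pass the same rule. Named genes are the 10 members, the relatives Ihh, Dhh, Hhip, Kif7 and Gpr161 (another relative in the rule is not reported here), and up to 8 others with the called ratio farthest from 1, with each member's highest element per column by the lower bound of its interval. Alternatives were the ratio over its class median, a 1.5-fold rule, at least 20 reads, elements inside the gene body, rows without shared bases, islands with 1 TSS, summed levels, gene bodies of like length and bodies without their island. RefSeq promoter sequences matched 7 of 10 members.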

Additional observations from a re-analysis of the deposited data

How the results depend on the processing

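A count was taken as kept within 1.5-fold and a level or percentile within the counting interval of the reported value (for a median, the medians of the members' bounds). By these limits 30 alternatives to the counts and medians kept the value and 6 moved it. The limits are wide for elements, where KAT7-skewed calls fell from 15 to 10 under the 1.5-fold rule and to 11 with ratios over the class median, and for island KAT7, 0.615 as a median and 0.753 summed. The call at Gas1 over gene bodies, 1 gene, went to 0 with ratios divided by the class median and to 0 under the 1.5-fold rule. Under the 1.5-fold rule, island calls went from 3 to 1, which is Gas1. KAT7-skewed elements went from 15 to 7 when only those inside a gene body were used. Of the 8 that were lost, 6 hold the TSS and 2 lie upstream. In the H3K14ac direction, elements went from 1 to 2 with ratios divided by the class median. The H3K14ac level of the gene bodies moved from a median of 0.392 to 0.405 when reads were summed. Of the single values 25 were kept and 7 moved, among them the H3K14ac percentile among gene bodies of like length for Gli2 (51.6 to 23.9) and Gli3 (65.4 to 41.5). Chosen after the data were seen, leaving out the Smo domain kept the gene body count at 1 and reversed the fold of the Smo island over its gene body, to 1.88 for H3K14ac and 1.58 for KAT7, and adding the Shh and Boc islands kept the island count at 3. No paired analysis was possible because each antibody has 1 merged column, and leaving out a replicate could not be run for the same reason. Depth limits the short elements: called ratios between 2 and 3 have lower bounds of 1.02 to 1.17.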
